A study of Mus musculus with 12 samples.

Results

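Transcript levels are described for 6 mouse genes of neutrophils and inflammatory myeloid cells, namely Fpr1, Fpr2, Trem1, Cxcr2, Csf3r and Asprv1. They were taken by name from a fixed list, and all 6 were among the 11786 genes of the expression table and among the 11785 that were tested. Libraries came from dendritic cells induced from mouse bone marrow with GM-CSF. The 4 groups were wild-type cells alone, wild-type cells kept overnight with necrotic B16-OVA melanoma cells (called lysate below), Ythdf1-/- labelled cells alone and Ythdf1-/- labelled cells with the same lysate, with 2 libraries each and 8 in all. B16-OVA cells are a melanoma line of the mouse with ovalbumin as a model antigen. The dendritic cells were purified before RNA was taken. Ythdf1 encodes a protein that reads the N6-methyladenosine mark on mRNA. The stated aim was to compare transcripts of dendritic cells between the genotypes. No source used here gives the mouse strain, the age of the mice, the altered part of the Ythdf1 gene or any pooling of mice. Whether the 2 libraries of a group stem from different animals or cultures is also not said in the labels. The p-values therefore measure the spread between these libraries alone, which may be technical.

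Bone marrow cultured with GM-CSF gives a mixture in which dendritic cells, macrophages and granulocytes can occur. Neutrophils find sites of damage through receptors that couple to inhibitory G proteins, and both the formyl peptide receptors and CXCR2 are of that kind. Formyl peptides come from bacteria and from mitochondria of broken cells, and CXCR2 reads chemokines such as CXCL1 and CXCL2. The G-CSF receptor drives the formation of neutrophils, and TREM1 amplifies inflammatory signals through the adaptor DAP12.

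Of the 6 genes, 5 encode receptors of the cell surface. FPR1 and FPR2 are the formyl peptide receptors, TREM1 is the triggering receptor expressed on myeloid cells, CXCR2 is a chemokine receptor and CSF3R is the receptor for G-CSF. Asprv1 encodes a retroviral-like aspartic protease known from the epidermis, which is not a surface receptor, so the common name of receptors holds for the other 5. Fpr1 and Fpr2 belong to a family with further close copies on the same chromosome. No source used here says how reads shared between such copies were counted, so their values carry that uncertainty.

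The sequences shown are the 250 bases before the start of 3 of the genes, chosen because Fpr1 and Fpr2 are neighbours with opposite directions and because Trem1 alone of the 6 passed the test of a difference between genotypes in the lysate change. All 6 genes had such a window in the RefSeq sequences of build GRCm38.p6, which is not the mm9 build named in the submitters' processing notes, and no expression value was taken by coordinate. In that build the starts of Fpr1 and Fpr2 lie 3885 bases apart. The windows are chr17:17883940-17884189 on the minus strand for Fpr1, chr17:17887574-17887823 on the plus strand for Fpr2 and chr17:48232489-48232738 on the plus strand for Trem1. Capitals mark matches, on either strand, to textbook motifs of myeloid factors: TTNNGNAA for C/EBP, GAGGAA for PU.1 and TTCNNNGAA for STAT, where N is any base. In Trem1 the STAT and PU.1 matches adjoin as 1 run of capitals.
Fpr1: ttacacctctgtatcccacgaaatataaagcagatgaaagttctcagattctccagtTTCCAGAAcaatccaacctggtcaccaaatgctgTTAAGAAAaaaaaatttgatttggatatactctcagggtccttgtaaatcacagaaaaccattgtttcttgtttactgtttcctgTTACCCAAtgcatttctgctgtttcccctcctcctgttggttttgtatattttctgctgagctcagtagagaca
Fpr2: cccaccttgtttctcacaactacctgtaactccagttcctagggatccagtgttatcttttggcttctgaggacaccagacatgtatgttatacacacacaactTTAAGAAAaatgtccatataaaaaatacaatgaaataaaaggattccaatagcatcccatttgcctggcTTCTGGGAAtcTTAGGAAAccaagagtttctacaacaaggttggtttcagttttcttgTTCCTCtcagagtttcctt
Trem1: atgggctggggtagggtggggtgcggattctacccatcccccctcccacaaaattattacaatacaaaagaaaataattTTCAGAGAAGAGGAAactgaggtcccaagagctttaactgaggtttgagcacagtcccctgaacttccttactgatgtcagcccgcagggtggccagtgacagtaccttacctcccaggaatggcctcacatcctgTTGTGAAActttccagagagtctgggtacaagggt

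The Fpr1 window held 3 C/EBP matches and neither of the other motifs. The Fpr2 window held 2 C/EBP matches, 1 PU.1 match and 1 STAT match, and the Trem1 window held 1 of each. The windows of Cxcr2 and Csf3r each held 1 PU.1 match, and that of Asprv1 held none of the 3 motifs. C/EBP matches were therefore in 3 of the 6 windows, against 28.6% of 9427 windows of the same length of genes in the table. PU.1 matches were in 4 of 6, against 22.9%, and STAT matches in 2 of 6, against 5.95%. These are letter matches and show no binding.

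The table gave a log2 level per gene and no read counts. The sequencing depth is therefore unknown, and no interval for counting error can be given. Library medians lay between 8.53 and 8.55, and the 2 libraries of 1 group differed by an SD over genes of 0.11 to 0.16. Ythdf1 itself did not pass the test between genotype labels (log2 difference -0.03 ± 0.081 SE without lysate, adjusted p = 0.85 in limma, and -0.16 ± 0.081 with lysate, adjusted p = 0.202). If the altered transcript is still made, a level summed over the gene is no check of the labels. Groups are therefore named by their labels, as KO-labelled, and each direction between genotypes rests on them. Some genes listed as conventional dendritic cell markers were present, ranked after division by transcript length among all genes with a known length. In untreated wild-type libraries H2-Ab1, a class II MHC chain, stood at percentile 99.7 and the integrin Itgax at 86.8. The cytokine receptor Flt3 stood at 67.5 and the lineage factor Zbtb46 at 58.6. These levels do not give the share of dendritic cells in the mixture. The neutrophil calprotectin genes S100a8 and S100a9 stood at percentiles 98.4 and 99.4 of the same libraries.

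On the same scale per length the 6 genes were spread widely over the table. In untreated wild-type libraries Fpr2 stood at percentile 82, Csf3r at 71, Trem1 at 67.7, Fpr1 at 62.7, Asprv1 at 35.2 and Cxcr2 at 29.5. In untreated KO-labelled libraries the order was the same at the top, with Fpr2 at percentile 66.5 and Csf3r at 62.4. Trem1 then stood at 46.2, Fpr1 at 43.9, Asprv1 at 21.6 and Cxcr2 at 17.4. All other levels below are log2 values with no correction for length and are compared only within a gene.

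**Figure D1:**
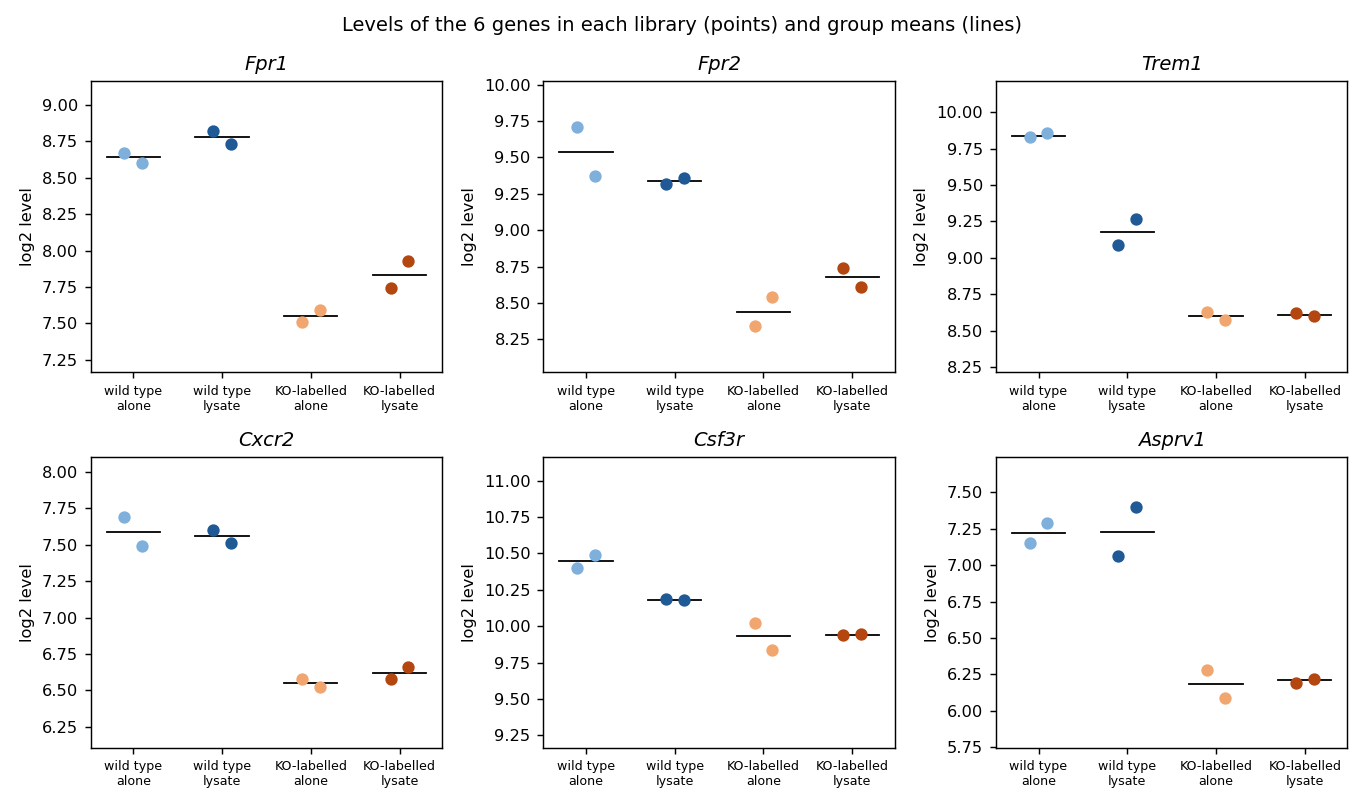
Log2 level of each of the 6 genes (vertical axis, a span of 2 log2 units in every panel, not starting at 0) in the 4 groups (horizontal axis); points are single libraries and lines are group means. With the same treatment, KO-labelled libraries lie below wild-type libraries in every panel. In that direction 26.4% of all genes separate without lysate and 31% with lysate. Trem1 has a step between untreated wild-type libraries (9.83 and 9.86) and wild-type libraries with lysate (9.09 and 9.27).

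Without lysate all 6 genes were lower in KO-labelled than in wild-type dendritic cells, 5 of them by a factor above 2. Over all genes, 9.23% passed the test in that direction (limma, Benjamini-Hochberg adjusted p under 0.05), 7.02% in the other and 16.2% in either. The median difference of the 6 genes was -1.06, beside 0.00 over all genes tested. Each untreated KO-labelled library lay below each untreated wild-type library for every one of the 6, a separation in that direction that 26.4% of all genes showed. Fewer cells of a type and less RNA per cell cannot be told apart in such bulk libraries. The lower calls of the 6 genes held under all 18 alternative fits tried for this comparison and at a threshold of 0.01.

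Both formyl peptide receptor genes fell by similar amounts. Fpr1 (Entrez 14293) stood at 8.67 and 8.60 in untreated wild-type libraries and at 7.51 and 7.59 in the KO-labelled libraries alone. All libraries of the lower group were more than 1 log2 unit below those of the other. The difference was -1.09 ± 0.089 (SE, n = 2 per group, limma adjusted p = 7.03e-06), a level 2.12-fold lower. Fpr2 (Entrez 14289) stood at 9.71 and 9.37 in wild type and at 8.34 and 8.54 in KO-labelled cells. It varied more between libraries of a group (SD 0.24 and 0.14) than Fpr1 (0.05 in both), and the groups did not overlap. Its difference was -1.10 ± 0.11 (limma adjusted p = 2.92e-05), or 2.15-fold lower.

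Trem1 showed the deepest fall of the 6. Trem1 (Entrez 58217) stood at 9.83 and 9.86 in untreated wild-type libraries and at 8.63 and 8.57 in the KO-labelled ones. Libraries of a group nearly coincided, and the groups were far apart. The difference was -1.24 ± 0.08 (limma adjusted p = 1.02e-06), which is 2.36-fold lower, and Trem1 had rank 8 of all 11785 genes by p-value. Its difference and those of the formyl peptide receptors have 95% intervals that overlap (-1.41 to -1.07 for Trem1, -1.28 to -0.89 for Fpr1).

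The chemokine receptor gene Cxcr2 (Entrez 12765) stood at 7.69 and 7.49 in wild type alone and at 6.58 and 6.52 in KO-labelled cells alone. The difference was -1.04 ± 0.094 (limma adjusted p = 1.64e-05), or 2.06-fold lower. Asprv1 (Entrez 67855) stood at 7.15 and 7.29 against 6.28 and 6.09, a difference of -1.03 ± 0.12 (limma adjusted p = 7.64e-05), or 2.05-fold lower. The protease gene, which is not a receptor, fell by about as much as Cxcr2 and the formyl peptide receptor genes. Csf3r (Entrez 12986) changed least, from 10.40 and 10.49 in wild type to 10.02 and 9.84. Its difference was -0.52 ± 0.076 (limma adjusted p = 4.97e-04), or 1.43-fold lower, with a 95% interval of -0.68 to -0.36 that lies outside the intervals of the other 5 genes, the nearest of which ends at -0.79 for Asprv1. Differences between genes were not tested against each other.

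The comparison with lysate shares no library with the untreated one, but the p-values of both use the spread of all 8 libraries. With lysate, 5 of the 6 genes were lower in KO-labelled cells. Of all genes, 5.45% passed in that direction, 7.44% in the other and 12.9% in either. The median of the 6 genes was -0.80, beside -0.01 over all genes. Asprv1, Fpr1 and Cxcr2 were lower by nearly 1 log2 unit, and Fpr2 and Trem1 by less. The libraries of the 2 genotypes did not overlap for any of the 6, as was the case, in that direction, for 31% of all genes. The 5 calls held under all 18 alternative fits.

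Asprv1 stood at 7.06 and 7.40 in wild type with lysate and at 6.19 and 6.22 in KO-labelled cells with lysate, a difference of -1.02 ± 0.12 (limma adjusted p = 2.37e-04). The wild-type libraries differed by more than in the other groups (SD 0.24), and both lay clearly above the KO-labelled ones. Fpr1 stood at 8.82 and 8.73 against 7.74 and 7.93, a difference of -0.94 ± 0.089 (limma adjusted p = 7.62e-05), or 1.92-fold lower. Cxcr2 stood at 7.60 and 7.51 against 6.58 and 6.66, a difference of -0.93 ± 0.094 (limma adjusted p = 1.17e-04). These 3 genes had about the same gap between genotypes with and without lysate.

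Fpr2 stood at 9.32 and 9.36 in wild type with lysate and at 8.74 and 8.61 in KO-labelled cells with lysate. The gap was -0.66 ± 0.11 (limma adjusted p = 0.00188), or 1.58-fold. Trem1 stood at 9.09 and 9.27 against 8.62 and 8.60, a gap of -0.57 ± 0.08 (limma adjusted p = 8.55e-04), or 1.48-fold. Its KO-labelled libraries lay at about the level they had without lysate, and its wild-type libraries lay lower than without lysate. Csf3r stood at 10.19 and 10.18 against 9.94 and 9.95, and its difference of -0.24 ± 0.076 did not pass the test (limma adjusted p = 0.0513, 95% interval -0.41 to -0.08). With either untreated KO-labelled library left out it passed (adjusted p = 0.0255 for replicate 1, 0.0253 for replicate 2), and over all alternative fits its adjusted p ran from 0.0133 to 0.283 with a difference of -0.25 to -0.24.

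**Figure D2:**
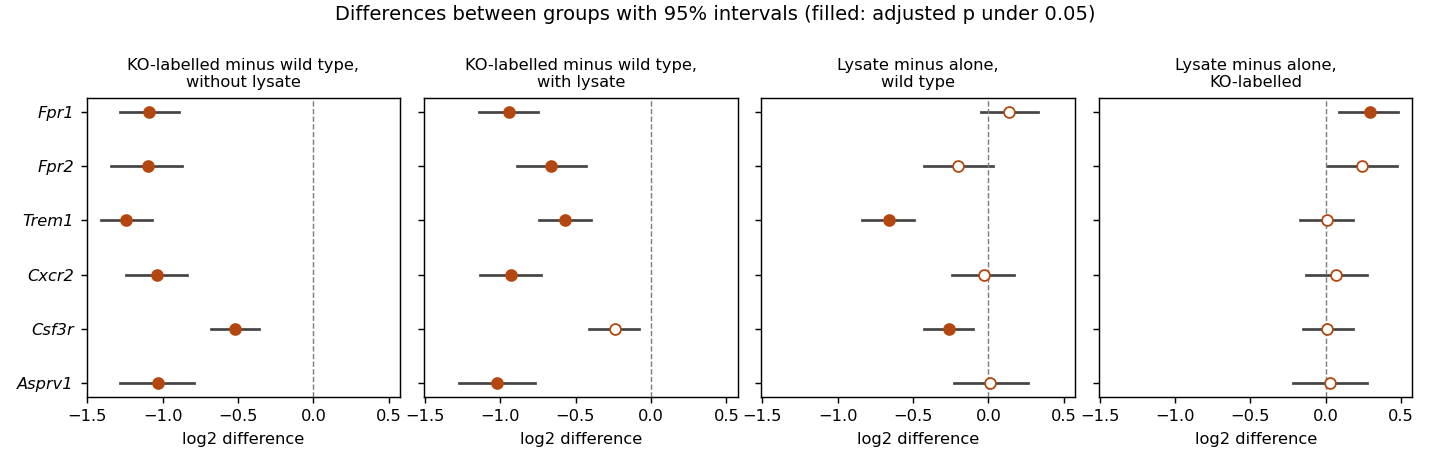
Log2 difference between groups (horizontal axis) for each gene (vertical axis) in 4 comparisons; points are limma estimates, lines are 95% intervals and filled points passed an adjusted p of 0.05. All 6 genes lie below 0 in both genotype panels, while among the lysate panels Trem1 (-0.66) and Csf3r (-0.26) passed in wild type and Fpr1 (0.29) in KO-labelled cells.

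Lysate lowered Trem1 and Csf3r in wild-type cells, and the other 4 genes did not pass the test there. Of all genes, 11.3% passed as lower, 10.2% as higher and 21.5% in either direction. Trem1 went from 9.83 and 9.86 to 9.09 and 9.27, a change of -0.66 ± 0.08 (limma adjusted p = 1.36e-04), which is 1.58-fold lower and was called under all 18 alternative fits. Csf3r went from 10.40 and 10.49 to 10.19 and 10.18, a change of -0.26 ± 0.076 (limma adjusted p = 0.0267). That call was lost without wild-type alone replicate 2 (change -0.22, adjusted p = 0.184), wild-type lysate replicate 1 (0.106) or replicate 2 (0.0857), and KO-labelled lysate replicate 1 (0.0557) or replicate 2 (0.0556). This comparison shares the untreated wild-type libraries with the genotype comparison above, so the values stand side by side and are not set against each other.

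For the other 4 genes the lysate change in wild type had these 95% intervals. Fpr1 changed by 0.14 (-0.05 to 0.33) and Fpr2 by -0.20 (-0.43 to 0.03). Cxcr2 changed by -0.03 (-0.24 to 0.17) and Asprv1 by 0.01 (-0.23 to 0.26). Without wild-type alone replicate 2, the lower of the Fpr2 values in that group, the Fpr2 change was -0.37 and passed (adjusted p = 0.0482).

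In KO-labelled cells Fpr1 was the 1 gene of the 6 that passed with lysate, and it rose. Of all genes, 8.28% passed as higher, 6.92% as lower and 15.2% in either direction. Fpr1 went from 7.51 and 7.59 to 7.74 and 7.93, a change of 0.29 ± 0.089 (limma adjusted p = 0.0473), or 1.22-fold. The call is near the threshold. It was lost when any 1 library other than KO-labelled alone replicate 2 was left out: wild-type alone replicate 1 (adjusted p = 0.054) or 2 (0.0538), wild-type lysate replicate 1 (0.0572) or 2 (0.057), KO-labelled alone replicate 1 (0.186), and KO-labelled lysate replicate 1 (0.0675) or 2 (0.333). Fpr2 went from 8.34 and 8.54 to 8.74 and 8.61, a change of 0.24 ± 0.11 that did not pass (adjusted p = 0.154). Without KO-labelled alone replicate 2 it was 0.34 and passed (adjusted p = 0.0398). The intervals of the remaining genes were -0.17 to 0.18 for Trem1, -0.13 to 0.27 for Cxcr2, -0.15 to 0.18 for Csf3r and -0.22 to 0.27 for Asprv1.

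The difference between the 2 lysate changes was tested directly, and Trem1 passed. Of all genes, 0.11% passed, all 13 of them with the higher change in KO-labelled cells. The change in KO-labelled cells was higher than that in wild type by 0.67 ± 0.11 (limma adjusted p = 0.0481, 95% interval 0.42 to 0.91). The Trem1 levels of wild-type libraries with lysate thus lay between those of untreated wild-type libraries and those of KO-labelled libraries. The call was lost without wild-type alone replicate 1 (adjusted p = 0.12) or 2 (0.155), wild-type lysate replicate 1 (0.218) or 2 (0.0947), and KO-labelled lysate replicate 1 (0.515) or 2 (0.359), with a difference between 0.58 and 0.76 in each case. Fpr2 (0.44 ± 0.15, adjusted p = 0.451) and Csf3r (0.28 ± 0.11, adjusted p = 0.5) did not pass, with unadjusted p of 0.0124 and 0.0229. Fpr1 (0.14), Cxcr2 (0.11) and Asprv1 (0.01) did not pass either, and their 95% intervals include 0.

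The means of the 4 groups did not have the same order in all 6 genes, though the step that differed did not pass the test. For Fpr2, Trem1, Cxcr2 and Csf3r the means fell from wild type alone to wild type with lysate, then KO-labelled with lysate, then KO-labelled alone. For Fpr1 and Asprv1 wild type with lysate came first and wild type alone after it, by 0.14 and 0.01 (limma adjusted p = 0.282 and 0.949). The same step did not pass for Fpr2 (-0.20) or Cxcr2 (-0.03), so their place in that order is also unsure. Neighbours in that order overlapped between libraries at the bottom for Trem1, Csf3r and Asprv1 (KO-labelled with and without lysate) and at the top for Cxcr2 and Asprv1 (wild type with and without lysate). The step from wild type to KO-labelled had no overlap in any of the 6, and its share over all genes was not computed.

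The genes with the most similar profile to each of the 6 were sought among all genes tested, as those with the smallest root mean square difference between centred log2 values over the 8 libraries. For Fpr1 they included Cxcr2 (0.11) and Chil1 (0.14), against a median of 0.53 over all genes. For Cxcr2 they included Fpr1 (0.11) and Stfa2l1, a stefin (0.13). For Fpr2 the nearest were Cstdc4 (0.13), Cxcr2 (0.14) and Clec4e, a lectin receptor also called Mincle (0.14). For Asprv1 they were Wfdc21 (0.13), Cxcr2 (0.14) and Plac8 (0.14). Cxcr2 was thus among the 3 nearest genes of Fpr1, Fpr2 and Asprv1.

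Trem1 and Csf3r had other neighbours. Trem1 was nearest to Ly6c2 (0.089) and Ly6c1 (0.11), surface proteins of inflammatory monocytes, and to Tlr2 (0.13), a receptor for bacterial lipoproteins. Ly6c1 and Ly6c2 are near-identical copies whose reads may have been split between them. Ly6c2 stood at 11.33 and 11.41 in wild type alone and at 10.84 and 10.71 in wild type with lysate. Its KO-labelled libraries lay at 10.13 and 10.07 alone and at 10.16 and 10.20 with lysate, so the means of its 4 groups had the same order as those of Trem1. Such likeness follows from the choice of nearest profiles over the same libraries. Csf3r was nearest to Gpr84, a receptor for fatty acids (0.043), Csf1r, the M-CSF receptor (0.045), and Hcls1 (0.05), against a median of 0.25 over all genes. Its own spread over the libraries was smaller (0.22) than that of the other 5 genes (0.47 to 0.52), so small differences are easier to reach.

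**Figure D3:**
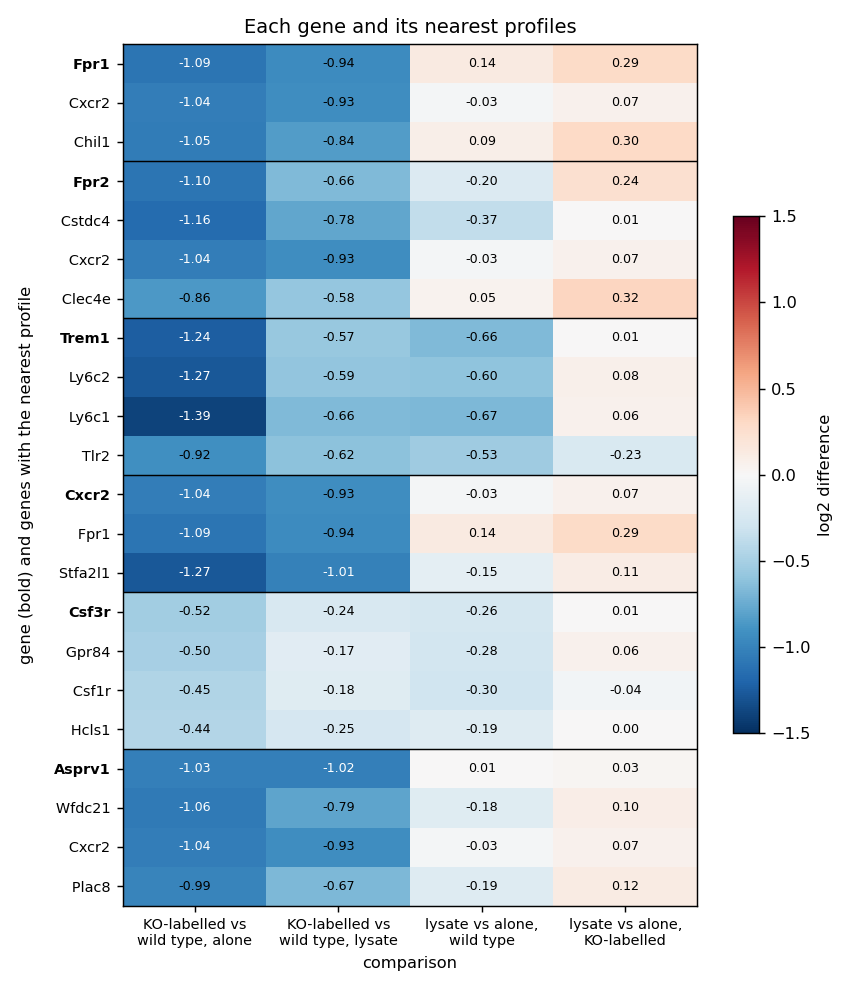
Log2 differences (colour and printed value) in 4 comparisons (columns) for each of the 6 genes (bold) and genes with the nearest profile over the 8 libraries (rows). Neighbours were chosen by likeness over these libraries, so similar values follow from that choice. The neighbours shown for Fpr1, Fpr2, Cxcr2 and Asprv1 have genotype differences of -1.27 to -0.86 without lysate and -1.01 to -0.58 with lysate, while Trem1 stands beside Ly6c1 and Ly6c2, whose lysate changes in wild type (-0.67 and -0.60) are near its own (-0.66), and Csf3r beside Csf1r.

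Among 8 measured ligands of these receptors, the CXCR2 ligands rose with lysate in both genotypes while Cxcr2 itself did not pass. In wild type 5 of the 8 rose and 3 fell, beside 10.2% and 11.3% of all genes. Ppbp, the chemokine CXCL7, rose by 2.15 ± 0.065, Cxcl3 by 0.99 ± 0.077 and Anxa1, which encodes the FPR2 ligand annexin A1, by 0.65 ± 0.063. Pglyrp1, a peptidoglycan-binding protein that can engage TREM1, fell by 0.77 ± 0.10. In KO-labelled cells 5 rose and 1 fell, beside 8.28% and 6.92% of all genes, with Ppbp (1.79), Cxcl3 (0.89), Anxa1 (0.59) and Cxcl2 (0.48) up. The single fall, of Pglyrp1 (-0.35), was lost without either KO-labelled lysate library, and 2 genes fell without either wild-type lysate library.

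Between genotypes, ligand genes were lower or did not pass. Without lysate 4 of the 8 fell, namely Camp, the cathelicidin that binds FPR2 (-1.58 ± 0.12), Pglyrp1 (-1.21 ± 0.10), Cxcl2 (-0.51) and Cxcl3 (-0.33). The median of the list was -0.31. With lysate 5 fell, with Camp (-1.37), Pglyrp1 (-0.79), Cxcl3 (-0.42), Ppbp (-0.30) and Cxcl2 (-0.22) lower and a median of -0.26. That count was 2 without KO-labelled lysate replicate 1 and 3 without replicate 2.

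Signalling partners were called in both directions. Over all genes, 9.23% fell and 7.02% rose between genotypes without lysate, and 5.45% fell and 7.44% rose with lysate. These shares stand beside the genotype counts of the ligands above, of this list and of the lists below. The median over all genes was 0.00 without lysate and -0.01 with lysate. Of 21 genes of G protein signalling 4 fell and 2 rose without lysate (median -0.07, 2 lower without wild-type alone replicate 2). Rac2, the GTPase of leukocyte movement, fell by 0.55 ± 0.068 and Pik3r5, a subunit of the lipid kinase downstream of these receptors, rose by 0.38 ± 0.07. With lysate 6 of the 21 rose and 1 fell (median 0.01), with Pik3r6 (0.46) and Pik3r5 (0.42) up and Rac2 (-0.42) down. The 6 rises became 3 without either wild-type lysate library or without KO-labelled lysate replicate 2, and all were lost without KO-labelled lysate replicate 1. The 1 fall became 2 when wild-type lysate replicate 1 was left out, 3 when either untreated KO-labelled library was, and was lost without KO-labelled lysate replicate 1.

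Of 14 genes around TREM1 and its adaptor, 7 fell and 2 rose without lysate (median -0.27). Trem3 fell by 0.70 ± 0.085 and Treml2 by 0.56 ± 0.083, both relatives of Trem1. The level of Trem3 was low, at 5.79 and 5.82 in wild type alone and 5.10 and 5.10 in KO-labelled cells alone. Tyrobp, which encodes DAP12, fell by 0.33 (adjusted p = 0.00463), from 13.24 and 13.29 in wild type to 12.95 and 12.93. The 2 rises became 1 without wild-type alone replicate 1 and were lost without wild-type alone replicate 2, KO-labelled alone replicate 2 or either KO-labelled lysate library. With lysate 3 of the 14 fell and 1 rose, with Tyrobp (-0.34), Trem3 (-0.35) and Treml4 (-0.37) down and Malt1 (0.45) up. Treml4 was low as well, at 5.67 and 5.51 in wild type with lysate and 5.17 and 5.27 in KO-labelled cells with lysate. The falls became 1 without wild-type lysate replicate 1 or KO-labelled lysate replicate 2 and were lost without KO-labelled lysate replicate 1, as was the rise, which was lost also without wild-type lysate replicate 2.

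Of 20 measured genes of G-CSF receptor signalling 5 fell and 2 rose without lysate (median -0.11). Cebpe, a factor of late granulocyte formation, fell by 0.67 ± 0.091, from 5.53 and 5.72 to 4.97 and 4.93, and Jak2, a kinase of cytokine receptors, rose by 0.35 ± 0.074. The 5 falls became 3 without wild-type alone replicate 2 or KO-labelled alone replicate 2, and the 2 rises became 1 without either wild-type alone library, KO-labelled alone replicate 1 or either KO-labelled lysate library. With lysate 4 rose, namely Jak2 (0.34), Tyk2 (0.31), Cish (0.39) and Stat3 (0.25), and 2 fell. Those rises became 1 without either wild-type lysate library or KO-labelled lysate replicate 2 and were lost without KO-labelled lysate replicate 1. The 2 falls became 1 without wild-type lysate replicate 2 and were lost without wild-type lysate replicate 1 or either KO-labelled lysate library.

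Of 28 other measured surface receptors of myeloid cells, 22 fell without lysate (median -0.40), with Tlr2 (-0.92 ± 0.063), Pilra (-0.73) and Cd14 (-0.64) among them. With lysate 17 fell and 2 rose (median -0.30), with Clec5a (-0.64) and Tlr2 (-0.62) down and Il1r2, the decoy receptor for interleukin 1 (0.50), up. The 17 falls became 10 or 11 when wild-type lysate replicate 1 or 2 was left out, and 4 or 5 when KO-labelled lysate replicate 1 or 2 was. The 2 rises became 1 without either wild-type lysate library or KO-labelled lysate replicate 2 and were lost without KO-labelled lysate replicate 1. The receptors for GM-CSF did not fall by the test: Csf2ra changed by -0.11 and Csf2rb by 0.09 without lysate. With lysate Csf2ra (0.08) did not pass, and Csf2rb (0.25, limma adjusted p = 0.0342) was, beside Il1r2, the other of the 2 rises.

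Most markers of neutrophils moved with the 6 genes. Those not called without lysate were Mpo (-0.01), Prtn3 (-0.17), Itgb2l (-0.13), Mxd1 (0.11) and Il1r2 (0.22). Of 26 measured neutrophil markers 21 were lower in KO-labelled cells without lysate (median -1.13), and with lysate 21 were lower and 1 higher (median -0.79), the higher one being Il1r2, which was no longer called without KO-labelled lysate replicate 1. S100a8 stood at 11.93 and 11.58 in wild type alone and at 10.06 and 10.08 in KO-labelled cells alone (-1.68), and S100a9 at 12.94 and 12.89 against 11.36 and 11.27 (-1.59). Ngp, a granule protein, fell by 1.55 ± 0.073 without lysate and by 1.64 ± 0.073 with lysate, Lcn2 by 1.33 and 1.37 and Ltf by 1.36 and 1.35. The neutrophil marker Ly6g and the granule protease gene Ctsg were not analysed here, and Camp, Pglyrp1 and Il1r2 are also in the lists of ligands and receptors above. No measured marker lay under 4 in any group, and 13 of the 26 stood above the median gene in untreated wild-type cells. A level above 4 is no evidence of expression, as the melanocyte gene Dct stood at 4.75 in both untreated wild-type libraries. In the same libraries Prtn3 (4.64 and 4.74) and Mpo (5.35 and 5.40) were about as low. The summed level of the list, led by Chil3, Mxd1 and Mmp8, was 15.38 to 15.45 in wild type alone, 15.29 to 15.40 in wild type with lysate, 14.74 in both KO-labelled libraries alone and 14.82 to 14.86 in KO-labelled cells with lysate. Their part in the result for the 6 genes was not tested.

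Other cell types moved as well. Of 18 monocyte and macrophage markers 11 were lower without lysate (median -0.34), led by Ly6c2 (-1.27) and Ly6c1 (-1.39), and 6 with lysate (median -0.21), or 3 without KO-labelled lysate replicate 1. In untreated cells 1 marker was also higher if KO-labelled alone replicate 1 was omitted. Their summed level was 16.69 to 16.78 in wild type alone and 16.51 to 16.62 in KO-labelled cells alone, and 16.70 to 16.74 against 16.56 to 16.59 with lysate. Of 12 conventional dendritic cell markers 5 were higher and 1 lower without lysate (median 0.22). Batf3 (0.84), Flt3 (0.41) and Zbtb46 (0.42) were among the higher ones, Itgax (-0.33) was the lower one, and H2-Ab1 (-0.04) did not pass. Cd209a and Xcr1, also listed, were not analysed here. The 1 lower marker was not called without wild-type alone replicate 2 or KO-labelled alone replicate 2. With lysate 7 of the 12 were higher (median 0.30), and none of these calls held without KO-labelled lysate replicate 1, while 1 marker was called lower without any 1 of the 4 untreated libraries. Their summed level was 16.10 to 16.21 in wild type alone, 16.24 to 16.37 in KO-labelled cells alone, 15.80 to 15.88 in wild type with lysate and 16.06 to 16.08 in KO-labelled cells with lysate. Of 4 measured markers of mast cells, basophils and eosinophils 1, Prg2, was lower without lysate (-0.59) and 1, Gata2, higher with lysate (0.39), the latter lost without wild-type lysate replicate 2 or either KO-labelled lysate library. In untreated cells 1 was also higher without KO-labelled alone replicate 2. The part of these cell types in the result was not tested.

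Pigment cell transcripts moved with lysate. All 5 measured melanocyte markers rose in both genotypes, with Dct up by 1.13 ± 0.087 in wild type and 1.31 ± 0.087 in KO-labelled cells. Their summed level, led by Mitf, went from 10.00 to 10.12 in wild type alone to 10.45 to 10.56 with lysate, and from 9.80 to 9.96 to 10.39 to 10.45 in KO-labelled cells. Untreated wild-type libraries already had Mitf at 9.97 and 9.84, against 4.75 in both for Dct, so the sum mainly follows Mitf. With lysate in wild type, 11.3% of all genes fell and 10.2% rose. Of the 26 neutrophil markers 6 fell and 1 rose with lysate in wild type (median -0.16), with 2 falls left if wild-type alone replicate 2 was omitted and 3 if wild-type lysate replicate 1 was. Of the 18 monocyte and macrophage markers 8 fell and 4 rose with lysate in wild type (median -0.07), with Adgre4 down by 0.94 ± 0.11 and Mrc1, the mannose receptor, up by 0.86 ± 0.078. Of the 12 conventional dendritic cell markers 6 fell (median -0.24), with Ciita, the regulator of class II MHC genes, down by 0.91 ± 0.076. That count was 3 if wild-type alone replicate 2, wild-type lysate replicate 1 or either KO-labelled lysate library was omitted. Of the 4 markers of mast cells, basophils and eosinophils, Prg2 (-0.60) and Kit (-0.35) fell. All these lists moved in the same libraries as the falls of Trem1 and Csf3r, and their part in those was not tested.

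**Figure D4:**
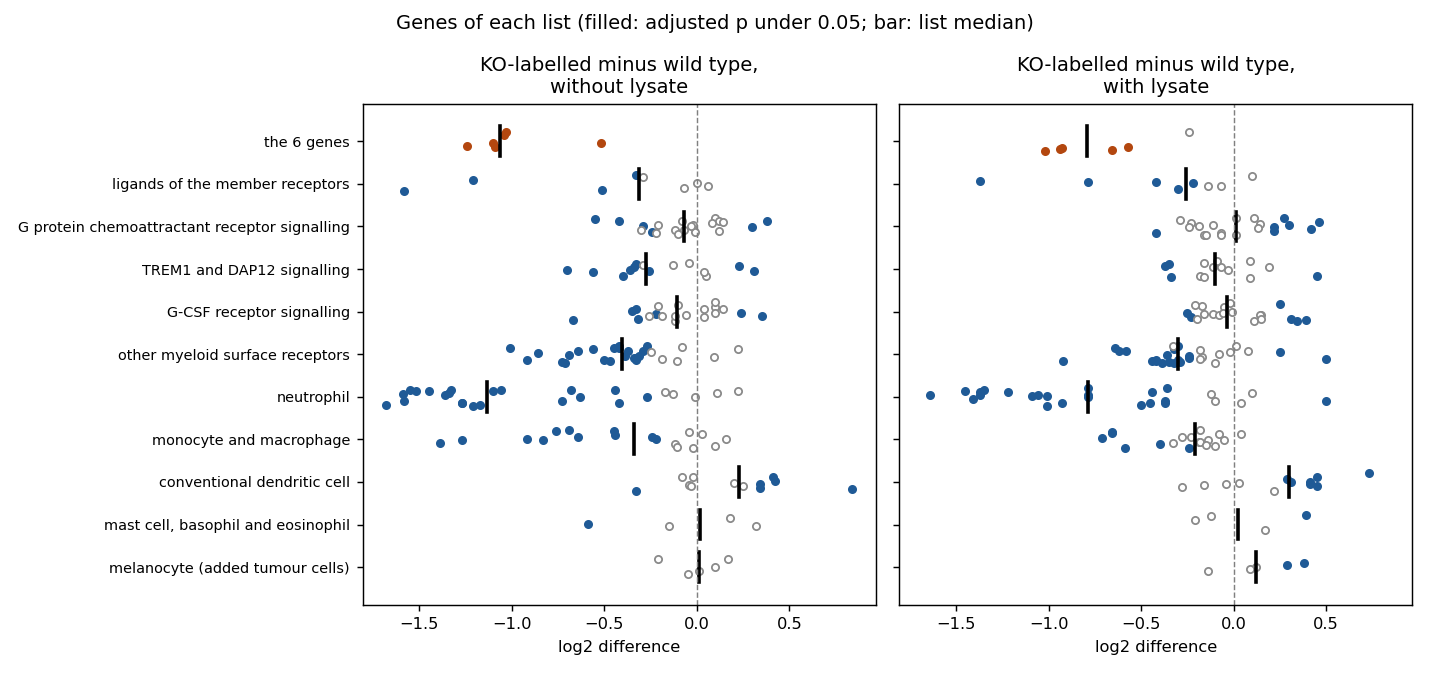
Log2 difference between KO-labelled and wild-type libraries (horizontal axis) without lysate (left) and with lysate (right) for every measured gene of each list (vertical axis); filled points passed an adjusted p of 0.05 and black bars are list medians. The 6 genes (median -1.06 and -0.80) lie near the neutrophil markers (-1.13 and -0.79), and conventional dendritic cell markers have medians above 0 (0.22 and 0.30).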

How the data were processed

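Gene expression was measured by RNA sequencing of 8 dendritic cell libraries in 4 groups of 2, grouped and numbered by their titles; 4 RNA immunoprecipitation samples were not analysed here. The deposited log2 values are read as the regularized logarithm of DESeq2 that the authors made from counts per Entrez gene, an inference from the table's name and the submitters' processing notes, which name STAR, deepTools, DESeq2 and the mm9 build without versions. No source used here gives the counter, its strand setting or the annotation. Values of this kind shrink the differences of low genes.

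Symbols came from RefSeq (GRCm38.p6) for 11744 of 11786 identifiers, and levels per length used the median length of protein-coding transcripts in GENCODE M21 (11291 genes). Genes with a largest group mean of at least 4 (11785) were tested with limma 3.58.1 in R 4.3.3: 1 fit of all 8 libraries, eBayes with a mean-variance trend, two-sided, Benjamini-Hochberg adjustment over all genes, threshold 0.05, 4 residual and 9.33 prior degrees of freedom. The fit was tried on simulated data with independent noise for each value. That cannot show how it behaves where deviations are shared over the genes of a library. Summed marker levels are the log2 of summed linear values.

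The 6 genes and the gene lists were chosen with earlier results of these data known. Genes named are the 6, Ythdf1, up to 4 genes past the threshold with the smallest p per list and pairwise comparison, and the 3 nearest profiles of each of the 6; 1 gene that this rule names is not reported here by name or value. Values outside that rule (S100a8, S100a9, Tyrobp without lysate, Cxcl2 with lysate between genotypes, Pglyrp1 with lysate in KO-labelled cells, Csf2ra, Csf2rb and the dendritic cell genes per length) were chosen after they were seen, as were the motifs searched. So were Itgax and H2-Ab1 between genotypes without lysate, Mitf, and the neutrophil markers named as not called. Alternatives were a replicate block, 2 filters, median centring, quantile normalization, 2 variance models, array weights, only the groups compared, a stricter threshold and leaving out each library. A crossed block and list counts under each alternative were added after the data were seen.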

Additional observations from a re-analysis of the deposited data

Results flagged for a closer look

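The lysate change of Trem1 differed between genotypes by the test of the difference itself (KO-labelled minus wild type 0.67, limma adjusted p = 0.0481, n = 2 libraries per group), and those of Ly6c2 (0.68, adjusted p = 0.026) and Ly6c1 (0.73, adjusted p = 0.0341) did as well. The lysate change in wild type was -0.66 for Trem1, -0.60 for Ly6c2 and -0.67 for Ly6c1, and 11.3% of all genes passed as lower there. Ly6c2 and Ly6c1 were among the nearest profiles of Trem1 over these libraries, so their likeness to it follows from that choice. None of the 3 calls held when any 1 of the 4 wild-type libraries (alone replicates 1 and 2, lysate replicates 1 and 2) or either KO-labelled library with lysate was left out. Without those libraries the adjusted p was 0.0502 to 0.3 for Ly6c2 (difference 0.62 to 0.75) and 0.0578 to 0.359 for Ly6c1 (0.67 to 0.79). Both Ly6c calls were also lost with the replicate block (adjusted p = 0.0837 and 0.105) and with no mean-variance trend (0.0621 for both). These values were computed after the data were seen.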

How the results depend on the processing

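The lower levels of the 6 genes in KO-labelled cells kept their direction and side of the threshold under all 18 alternatives without lysate, and 5 of the 6 did so with lysate. Csf3r with lysate was also called with a filter at 6, median centring, array weights, only the groups compared and the crossed block, which makes 6 of 6 genes. Depth is unknown, and 2 libraries per group limit the precision.

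The number of the 6 genes called with lysate in wild type (2) was 1 to 2 without single libraries and 1 at a threshold of 0.01. In KO-labelled cells (1) it was 0 to 2 without single libraries, 0 with the replicate block, with only the groups compared and at 0.01, and 2 with the crossed block. For the difference of lysate effects (1) it was 0 to 1 without single libraries and 0 with the replicate block, a filter at 6, median centring, quantile normalization, no mean-variance trend and a threshold of 0.01. Trem1 in that test had an adjusted p of 0.00612 to 0.515 over its alternatives. Uncalled lysate changes turned sign without single libraries for Cxcr2 (-0.13 to 0.06) and Asprv1 (-0.16 to 0.19) in wild type and for Trem1 (-0.02 to 0.04), Csf3r (-0.08 to 0.10) and Asprv1 (-0.07 to 0.12) in KO-labelled cells, and so did the difference of lysate effects of Asprv1 (-0.16 to 0.18). The cause was not tested.

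Over all genes, 2534 were called with lysate in wild type (1031 to 3152 without single libraries, 1142 at 0.01), 1792 in KO-labelled cells (564 to 2275, 759 at 0.01, 2919 with the crossed block), 1915 between genotypes without lysate (1174 to 1865, 956 at 0.01, 1196 with only the groups compared) and 1519 with lysate (193 to 2057, 526 at 0.01, 2638 with the crossed block). For the difference of lysate effects 13 were called (0 to 32 without single libraries, 1 with the replicate block, 8 with a filter at 6, 1 with no trend, 1 at 0.01, 54 with the crossed block).

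Replicate numbers were not shown to pair the libraries. Deviations of same-numbered libraries correlated between -0.61 (untreated wild type and untreated KO-labelled) and 0.26, so a block with the numbers of the untreated KO-labelled libraries exchanged was added after the data were seen.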
